A study of Homo sapiens with 6 samples.

Results

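The replication-dependent histone genes encode the bulk histones H2A, H2B, H3 and H4 that wrap DNA into nucleosomes and the linker histones H1 that sit between nucleosomes. They were taken as every row of the deposited expression table whose gene symbol follows the systematic names of these clustered genes (H1-1 to H1-6, and H2A, H2B, H3 and H4 followed by C and a number, or the older HIST names), without regard to expression. This gave 60 of the 17088 genes listed, namely 6 H1, 14 H2A, 16 H2B, 13 H3 and 11 H4 genes. The testis linker histone gene H1-6 follows the naming pattern and was kept.

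The values came from RNA sequencing of MDA-MB-231, a line grown from a human breast cancer of the triple-negative class, whose cells look mesenchymal. One group, VecRPPH1, overexpressed the noncoding RNA RPPH1, the RNA subunit of the tRNA-processing enzyme RNase P, and the other group, VecNC, was the control. Each group had 3 libraries, and all 6 came from the same line. The vector, how long it was expressed, whether the cells were a clone or a pool, and whether the replicates were separate cultures are not given in the sources used here, and the p-values below therefore speak only for differences among these 6 libraries, whose spread may be technical. The RPPH1 transcript itself was not analysed here, so its overexpression has no check in the text below.

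Most mRNAs end in a poly(A) tail. Replication-dependent histone mRNAs are the known exception among animal mRNAs: they are made in S phase from intronless genes, and their 3′ end is formed by a cut shortly after a conserved stem-loop, with the help of the stem-loop binding protein SLBP and the U7 small nuclear RNA. When DNA replication stops, these mRNAs are degraded. Some histone genes can also be read further and given a poly(A) tail at a downstream site, a form known from differentiated and non-dividing cells. Per the labels' protocols the libraries were made with an Illumina stranded mRNA kit, which captures RNA through its poly(A) tail, so the levels below are those of histone RNA that such a library retains, and not of histone mRNA as a whole.

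Recovered library totals were 17603126 to 18274890 fragments in VecRPPH1 and 18204469 to 18817269 in VecNC, the deepest exceeding the shallowest by 6.90%. At that depth, 1 FPKM (fragments per unit of gene length, relative to the library total) on a gene of 500 bases was worth 8.80 fragments in the shallowest library. One library, VecNC replicate 1, stood apart on the first principal component of the tested genes, at 10.93 against -4.40 to 0.107 for the other 5. The line's markers were present, with VIM at 2585 to 2743 FPKM, CD44, AXL and ZEB1 at 11.8 FPKM or more, and the oestrogen receptor gene ESR1 and the epithelial cadherin gene CDH1 at most 0.0173 and 0.144 FPKM. ERBB2 (11.3 to 12.8 FPKM) and EPCAM (6.17 to 7.29 FPKM), taken beforehand as low or absent in this line, were present. The level of ERBB2 was close to that of ZEB1 (11.8 to 13.4 FPKM). Of 9 listed markers of blood, endothelial, fibroblast, liver and erythroid cells, the fibroblast collagen gene COL1A1 was the highest, at 3.48 to 4.22 FPKM.

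The stem-loop was searched for in the annotated transcripts of each member, past the coding end, as the letters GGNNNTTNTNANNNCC with all 6 stem positions able to pair. It was found in GENCODE 29 transcripts (GRCh38) of 28 of the 60 genes, 25 to 70 bases after the coding end. The models of 27 genes ended within 10 bases of the coding end, so an absent match often says only that the model stops short. Anywhere in the transcript, and not only past the coding end, the same letters stood in 223 of 83129 protein-coding transcripts of all genes (0.268%). That share is therefore not on the same footing as the 28 of 60. Among the 28 there were 6 versions of the element, 15 genes carrying the commonest one. The following set shows the element (capitals, read as in the transcript) in genes that were well seen and in genes that were not, with neighbouring bases in lower case. H2AC8, H4C5 and H3C6 were listed at 0 in every library, while the other 4 genes passed the filter on low values.
H2AC6: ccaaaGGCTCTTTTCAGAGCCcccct
H2AC8: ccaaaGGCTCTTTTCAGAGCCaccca
H2BC5: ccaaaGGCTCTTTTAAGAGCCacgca
H2AC11: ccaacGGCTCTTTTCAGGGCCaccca
H4C8: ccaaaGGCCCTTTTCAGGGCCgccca
H4C5: tcaaaGGCCCTTTTCAGGGCCgccca
H3C6: ccaaaGGCTCTTCTCAGAGCCaacca
H2AC6, at 26.1 to 38.2 FPKM, and H2AC8, at 0, had the same 16 letters. So did H4C8, at 3.73 to 7.02 FPKM, and H4C5, at 0.

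Few of the histone genes were seen at a level that could be tested. A gene was tested if it had at least 1 FPKM in at least 3 libraries, and 18 of the 60 did (30%), against 10909 of 17088 listed genes (63.8%). Another 28 were over 0 in at least 1 library but stayed under that filter, and 14 (23.3%) were listed at 0 in all 6 libraries, against 795 of all listed genes (4.65%). The tested genes were 2 of 6 H1, 4 of 14 H2A, 7 of 16 H2B, 3 of 13 H3 and 2 of 11 H4 genes. The genes at 0 were H1-1, H1-3, H1-5, H1-6, H2AC8, H2AC16, H2BC7, H2BC9, H2BC10, H3C6, H3C7, H3C8, H3C11 and H4C5. An exact 0 is given only as listed, because a table without counts can hold failed estimates. The 28 genes under the filter had 1 to 91 fragments over the 6 libraries together, with a median of 9, and they were not tested. The tested genes had 66 to 10180 fragments, with a median of 162.5.

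H2BC18, an H2B gene on chromosome 1, had the most fragments of the genes under the filter. It had 12, 24 and 19 fragments in VecRPPH1 replicates 1, 2 and 3, against 13, 7 and 16 in VecNC, or 0.617, 1.26 and 1.01 FPKM against 0.649, 0.361 and 0.820 FPKM. The groups overlapped, and only 2 libraries, both VecRPPH1, reached 1 FPKM.

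The gene models behind the values bear on what could be counted. Gene lengths were recovered from the FPKM steps for the 46 members over 0, and in 40 the length equalled the span of the RefSeq gene, 387 to 2224 bases. Such a model usually ends at the stem-loop. Of the 28 genes with a stem-loop, the RefSeq gene ended at most 20 bases past it in 22, and exactly 5 bases past it in 18. Fragments from RNA that continues further downstream would fall outside such a model. The other 6 genes, H2BC12, H2BC5, H2BC4, H2BC18, H4C15 and H3C4, had recovered lengths that differ from the RefSeq span. H2BC12 was counted on 887 bases and H2BC5 on 1320 bases. The RefSeq spans of both also overlap other genes, H4C9 on the opposite strand for H2BC12 and the antisense gene H2BC6-AS1 and LARP1P1 for H2BC5, and H4C9 itself had 4 fragments over the 6 libraries. The span of H2BC18 overlaps FCGR1A and LOC124904411, and that of H3C4 overlaps H2AC7. The span of H4C15 overlaps H2AC19, H2BC20P and H3C15. H2AC6 was counted on 519 bases although GENCODE 29 holds a transcript of it that runs 1114 bases past the stem-loop.

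A poly(A) signal, AATAAA or ATTAAA in the last 50 bases of an annotated coding transcript and past any stem-loop, was present for 9 of the 18 tested genes. It was present for 7 of the 28 genes under the filter and for 4 of the 14 at 0. H2AC6, H2BC5, H2BC4, H2BC11, H2BC21 and H4C8 were among the tested genes with such a transcript, while H2BC12 and H1-2, the highest of all, were not. The GENCODE models of these last genes stop at the coding end, H2BC12 at 381 bases with 378 coding and H1-2 at 642 with 639. No signal could be found in such a model, so its absence says only that the model stops short. H3C6 had such a transcript, running 1862 bases past its stem-loop, and was listed at 0. These are counts of annotated ends and were not tested. Coding sequence shared between near-identical genes is a further limit, since reads from it cannot be placed by sequence alone. The recovered fragment numbers were whole, so such reads were not split into fractions. Whether the authors' counting dropped them or gave them to a single gene is not known here. In 10 members over 50% of the 50-base windows of coding sequence also occurred in another member, and all 10 were under the filter. None of the 18 tested genes was in that state, and 11 of the 14 genes at 0 shared no such window with another member. Windows shared with genes or pseudogenes outside the set were not searched.

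The H1 genes encode linker histones. H1-2 on chromosome 6 (26055787 to 26056428, minus strand, GRCh38, GENCODE 29; a single exon) had 73.4, 71.4 and 72.3 FPKM in VecRPPH1 replicates 1, 2 and 3, against 66.9, 64.1 and 68.3 FPKM in VecNC replicates 1, 2 and 3. Every VecRPPH1 library was above every VecNC library. The group means were 72.3 ± 0.984 and 66.4 ± 2.15 FPKM (SD, n = 3 each), a log2 fold change of 0.12 (SE 0.0382) on the log2(FPKM + 1) scale used for all fold changes here, which understates changes of low genes. With limma the unadjusted p was 0.0101 and the Benjamini-Hochberg adjusted p over 10909 genes was 0.465, so the difference did not pass the threshold of 0.05. H1-4 (chromosome 6, 26156354 to 26157107) had 3.55, 1.98 and 2.82 FPKM in VecRPPH1 and 2.90, 3.28 and 2.15 FPKM in VecNC. The H1-4 groups overlapped throughout, with a limma adjusted p of 0.992. The other 4 H1 genes were at 0.

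Among the H2A genes, whose products pair with H2B, H2AC6 (26124145 to 26139116, chromosome 6, plus strand) stood far above the others. It had 34.5, 38.2 and 34.3 FPKM in VecRPPH1 and 29.9, 33.0 and 26.1 FPKM in VecNC. Its lowest VecRPPH1 library was above its highest VecNC library. Among the 3 histone genes whose groups did not overlap, its log2 fold change was the largest. The means were 35.6 ± 2.22 and 29.7 ± 3.49 FPKM (SD, n = 3 each), a log2 fold change of 0.26 (SE 0.0784), a limma unadjusted p of 0.00775 and an adjusted p of 0.465. H2AC20, on chromosome 1 (149886975 to 149887364), was the next H2A gene, at 1.22, 2.48 and 2.99 FPKM in VecRPPH1 against 1.40, 1.22 and 2.43 FPKM in VecNC. These values rested on 11 to 26 fragments a library and overlapped, with a limma adjusted p of 0.803. H2AC17 and H2AC11, the remaining tested H2A genes, had means between 1.17 and 1.68 FPKM in both groups.

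The H2B genes held the highest level of the whole set. H2BC12 on chromosome 6 (27146418 to 27146798, minus strand) had 108.7, 113.8 and 105.9 FPKM in VecRPPH1 and 99.2, 98.2 and 105.1 FPKM in VecNC, from 1586 to 1813 fragments a library. The groups did not overlap, although the lowest VecRPPH1 library was only just above the highest VecNC library. Its log2 fold change was 0.12 (SE 0.0421), a limma unadjusted p of 0.0193 and an adjusted p of 0.548. Without VecRPPH1 replicate 2, its highest library, the fold change was 0.0896. H2BC5, whose level came next among the H2B genes (26158146 to 26171349, chromosome 6), had 13.3, 14.8 and 13.6 FPKM in VecRPPH1 and 13.7, 12.3 and 13.2 FPKM in VecNC. Those groups overlapped, with a log2 fold change of 0.08 and a limma adjusted p of 0.738. The fold change was 0.0415 without VecRPPH1 replicate 2 and 0.0448 without VecNC replicate 2.

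H2BC11, also on chromosome 6 (27125897 to 27132750, minus strand), differed in the other direction. It had 2.05, 3.71 and 4.62 FPKM in VecRPPH1 and 4.43, 4.81 and 5.57 FPKM in VecNC. VecRPPH1 replicate 1 was the lowest of all 6 libraries, and the groups overlapped through VecRPPH1 replicate 3. The log2 fold change was -0.45 (SE 0.183), a limma unadjusted p of 0.0340 and an adjusted p of 0.582. Without VecRPPH1 replicate 1 the fold change was -0.20. The other 4 tested H2B genes, H2BC17, H2BC4, H2BC15 and H2BC21, had group means between 0.987 and 2.18 FPKM and limma adjusted p-values between 0.763 and 0.997. H2BC4 and H2BC21 had the most fragments of these, with overlapping groups at 1.42 ± 0.146 and 0.987 ± 0.163 FPKM in VecRPPH1, against 1.61 ± 0.142 and 1.15 ± 0.112 FPKM in VecNC (SD, n = 3 each).

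The H3 and H4 genes, which like the H2A and H2B genes encode core histones of the nucleosome, were low throughout. H3C3 (chromosome 6, 26045411 to 26045821) had 1.69, 1.83 and 3.27 FPKM in VecRPPH1 and 1.31, 2.83 and 1.01 FPKM in VecNC, with overlapping groups and a limma adjusted p of 0.787. H3C2 (26031650 to 26032060) had 1.82, 1.63 and 1.56 FPKM in VecRPPH1 and 2.08, 2.04 and 1.39 FPKM in VecNC, also overlapping. H3C10 was the only other tested H3 gene. Each of the 3 rested on at most 28 fragments a library.

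H4C8 was the highest H4 gene (chromosome 6, 26277609 to 26285638, minus strand). It had 4.15, 4.63 and 5.0 FPKM in VecRPPH1 and 7.02, 4.97 and 3.73 FPKM in VecNC. VecNC replicate 1 was the highest library and VecNC replicate 3 the lowest, so the VecRPPH1 values lay inside the VecNC range. The log2 fold change was -0.13, and 0.07 without VecNC replicate 1. H4C3 (26103876 to 26104310) had 1.62, 2.61 and 2.95 FPKM in VecRPPH1 and 1.97, 0.678 and 1.62 FPKM in VecNC, from 12, 19 and 21 fragments against 15, 5 and 12. Its log2 fold change of 0.51 (SE 0.207) was the largest of the tested histone genes in size. The groups overlapped, and the limma unadjusted p was 0.0350 with an adjusted p of 0.582. Without VecNC replicate 2, where it had 5 fragments, the fold change was 0.26.

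**Figure D1:**
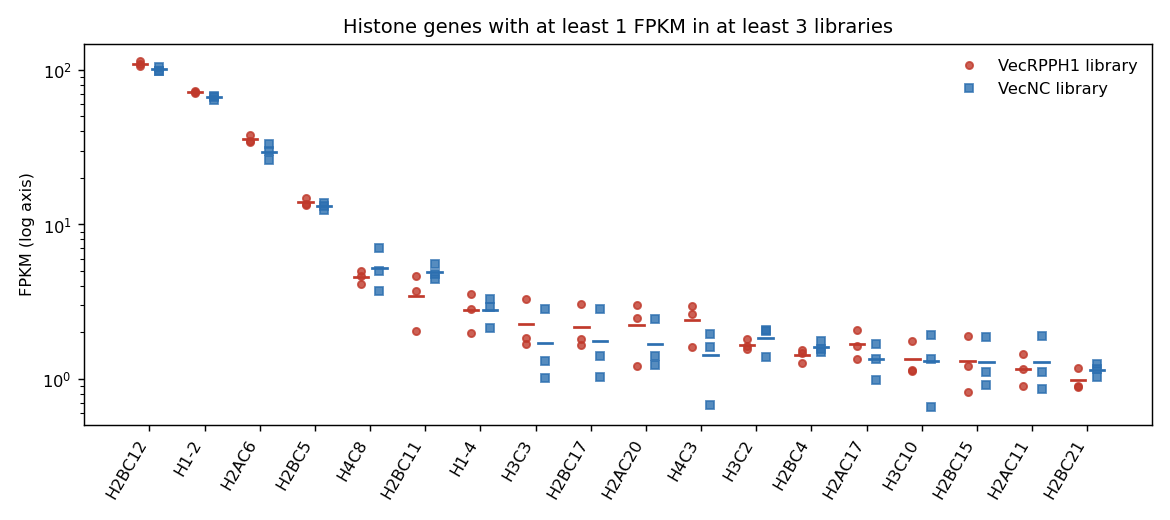
FPKM (log axis) of the 18 tested histone genes in each library, ordered by mean level, with VecRPPH1 libraries as circles, VecNC libraries as squares and group means as short bars. H2BC12, H1-2 and H2AC6 are the 3 genes whose groups do not overlap, and 4 genes lie above 10 FPKM.

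Over the 18 tested genes, 0 passed an adjusted p of 0.05 by limma, where 0.00917% of all tested genes did (1 of 10909). Of the 18, 5 had an unadjusted p under 0.05, 4 with higher and 1 with lower means in VecRPPH1, where 7.97% of all tested genes had one. In 3 of the 18, every VecRPPH1 library was above every VecNC library, where this held for 7.98% of all tested genes. In 0 of the 18 was every VecRPPH1 library below every VecNC library, where this held for 5.88% of all. limma-voom on the recovered fragments gave 0 calls and 3 unadjusted p-values under 0.05, and limma without VecRPPH1 replicate 2 also gave 3. Means were higher in VecRPPH1 in 11 and lower in 7. The median log2 fold change was 0.07, and 0.0046 over all tested genes. Leaving out single libraries gave medians from 0.0259 (without VecRPPH1 replicate 3) to 0.103 (without VecRPPH1 replicate 2). The median absolute log2 fold change was 0.12 against 0.05 over all tested genes. Fragment numbers were low in most of the set, and their part in this was not tested. Only 4 genes had at least 200 fragments a library on average, and their coefficients of variation within groups were 2.41% to 8.96%. The other 14 had 11 to 67 fragments and coefficients of 9.48% to 46.5%.

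**Figure D2:**
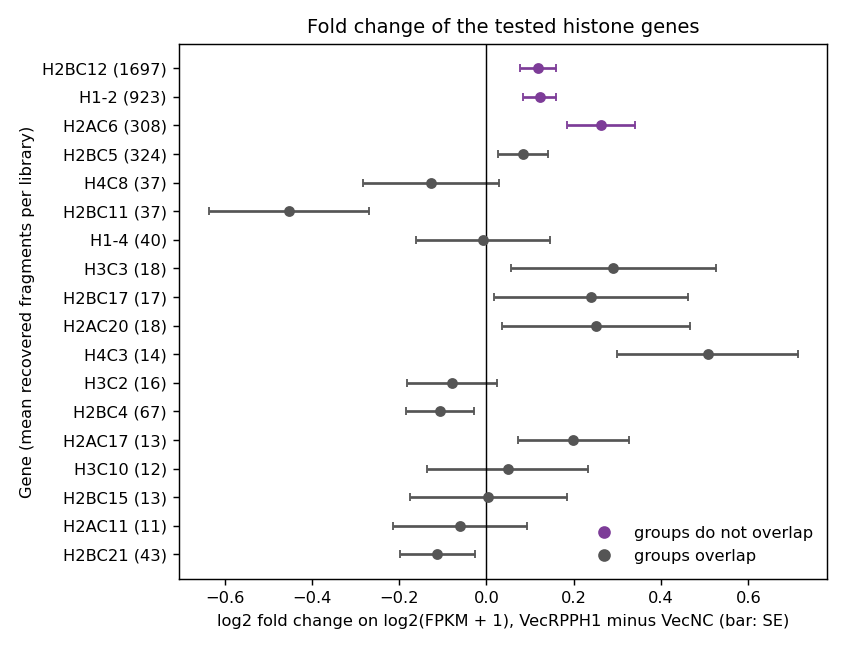
Log2 fold change on log2(FPKM + 1), VecRPPH1 minus VecNC, with its SE from limma, for the 18 tested histone genes ordered by mean FPKM, and the mean recovered fragments per library in brackets. The 4 genes with at least 200 fragments lie between 0.08 and 0.26, while those with fewer spread from -0.45 to 0.51. The SE of the latter runs from 0.0782 (H2BC4), close to the 0.0784 of H2AC6, to 0.235 (H3C3).

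Summed over all 60 genes, histone FPKM was 262.5, 271.6 and 268.1 in VecRPPH1 replicates 1, 2 and 3, against 243.4, 243.4 and 247.6 in VecNC. Every VecRPPH1 library was higher. The means were 267.4 ± 4.58 and 244.8 ± 2.46 FPKM (SD, n = 3 each), a ratio of 1.09. The difference of the means was 22.6 FPKM, and 21.9 FPKM without VecNC replicate 1, the library that stood apart. The sum is mostly that of H2BC12, H1-2, H2AC6 and H2BC5, which held 86.2% of it and summed to 231.4 ± 6.22 against 210.0 ± 2.54 FPKM. The remaining 56 genes summed to 35.99 ± 5.19 FPKM in VecRPPH1 and 34.8 ± 1.00 FPKM in VecNC, with overlapping libraries. In poly(A)-captured RNA from a whole culture, more cells in S phase, more histone RNA per cell and a larger share of it with a poly(A) tail cannot be told apart. The sums were not tested.

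By histone, H1 genes summed to 75.1 ± 1.76 FPKM in VecRPPH1 and 69.2 ± 1.62 in VecNC, and the libraries did not overlap. H2A genes summed to 42.6 ± 2.11 and 35.8 ± 2.94 FPKM, also without overlap, and H2B genes to 134.5 ± 3.97 and 126.1 ± 4.87 FPKM, where VecNC replicate 3 lay just under the lowest VecRPPH1 library. Each of these sums was mostly that of a single gene. In VecRPPH1, H1-2 averaged 72.3 FPKM, H2AC6 35.6 and H2BC12 109.5, so the sums largely repeat the values of the genes whose own groups did not overlap. H3 and H4 genes summed to 6.61 ± 1.37 and 8.56 ± 1.41 FPKM in VecRPPH1, against 6.11 ± 1.54 and 7.56 ± 1.86 FPKM in VecNC, with overlap in both. H2B thus made up 50.9% of the summed FPKM and H3 2.48%. A nucleosome holds these proteins in equal number, but the shares are of RNA kept by poly(A) capture and not of protein.

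**Figure D3:**
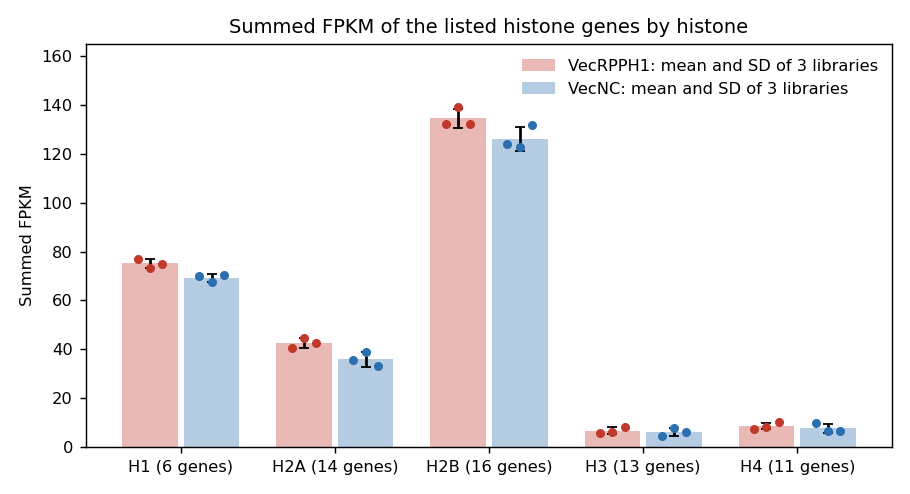
Summed FPKM of the listed genes of each histone, with bars for the mean and SD of 3 libraries and points for single libraries, VecRPPH1 left of VecNC. H2B genes sum to over 120 FPKM in every library, while H3 and H4 genes stay at or under 10.1 FPKM.

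The genes lie in 3 places. The first group on chromosome 6 (26017085 to 26285638, GRCh38, GENCODE 29) held 29 genes, of which 9 were tested and 11 were at 0, and summed to 139.5 FPKM in VecRPPH1 and 125.3 in VecNC on average. The second group on chromosome 6 (27125897 to 27893843) held 20 genes, of which 7 were tested and 3 were at 0, with sums of 123.1 and 115.0 FPKM. The group on chromosome 1 (149782689 to 149887916) held 11 genes, of which 2 were tested and 0 were at 0, with sums of 4.83 and 4.50 FPKM. H1-2 and H2AC6 carried most of the sum of the first group and H2BC12 that of the second.

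**Figure D4:**
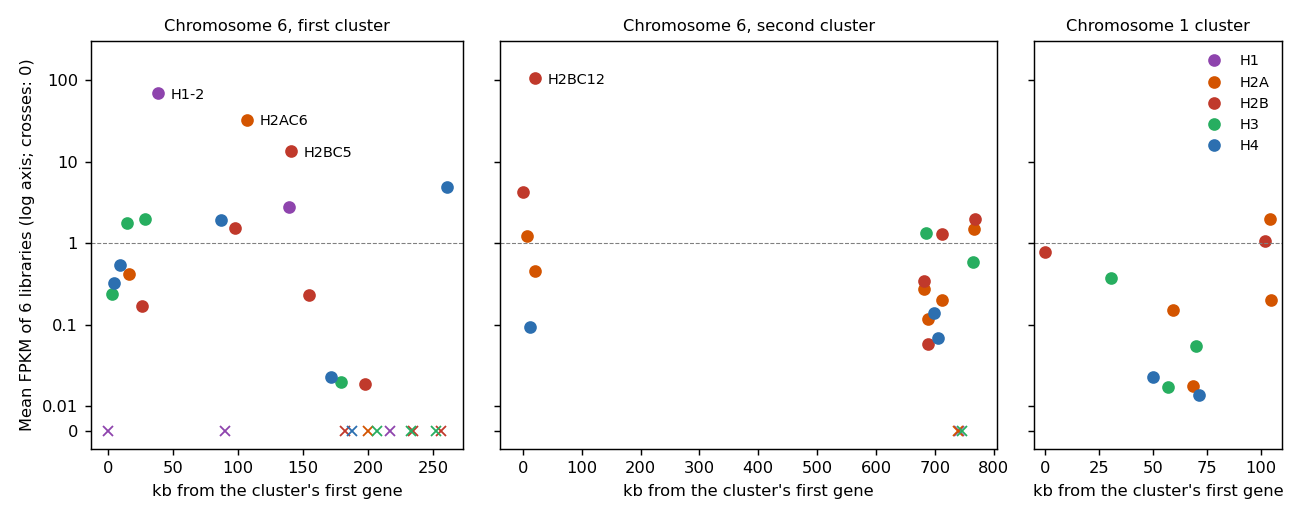
Mean FPKM over the 6 libraries (log axis, crosses for 0) against distance in kb from the first gene of each cluster, coloured by histone. The dashed line marks 1 FPKM, and H1-2, H2AC6, H2BC5 and H2BC12 are the only genes above 10 FPKM.

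Many H2A and H2B genes stand head to head and share the DNA between their starts. Counted by GENCODE gene starts, there were 8 such pairs, with 219 to 331 bases between the partners. In the pair with the widest gap, H2AC12 had a mean of 0.462 FPKM over the 6 libraries and H2BC12 105.2 FPKM, a ratio of 228. H2AC12 had 2, 1 and 8 fragments in VecRPPH1 and 6, 3 and 3 in VecNC. In the pair with the shortest gap of the 8, H2AC6 had a mean of 32.7 FPKM and H2BC4 1.52 FPKM, a ratio of 21.5. H2BC4 was counted on a long model of 2426 bases, which lowers its FPKM for a given number of fragments, and it still had 55 to 78 fragments a library against 248 to 356 for H2AC6. The other counted pairs differed less: 4.20 FPKM for H2BC11 against 1.23 for H2AC11, and at most 2.01-fold in the 4 others with values in both partners. H2BC15 and H2AC15 also stand head to head by their RefSeq promoter windows, at 27838319 to 27838618 and 27838326 to 27838625. They were not counted because the GENCODE gene of H2BC15 starts further upstream, at 27837760. Their means were 1.30 and 0.203 FPKM, from 77 and 11 fragments over the 6 libraries.

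The promoters of H2BC12 and H2AC6, the higher partners in the widest and the shortest of the 8 pairs, are shown because the bases between the genes serve both partners. Capitals mark TATAAA (the TATA box), CCAAT (the CCAAT box) and ATTTGCAT (the octamer of H2B promoters), each searched on both strands, with overlapping matches joined. The sequences are from RefSeq (GRCh38.p14) and run from 250 bases before to 50 after the gene start. They lie at chr6:27146809-27147108 on the minus strand for H2BC12 and at chr6:26123922-26124221 on the plus strand for H2AC6.
H2BC12: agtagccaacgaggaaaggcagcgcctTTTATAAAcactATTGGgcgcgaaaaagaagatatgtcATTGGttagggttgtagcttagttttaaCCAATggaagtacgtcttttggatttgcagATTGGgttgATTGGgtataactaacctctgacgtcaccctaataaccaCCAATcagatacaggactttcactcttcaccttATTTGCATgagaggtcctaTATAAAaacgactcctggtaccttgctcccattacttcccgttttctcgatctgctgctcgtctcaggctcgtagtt
H2AC6: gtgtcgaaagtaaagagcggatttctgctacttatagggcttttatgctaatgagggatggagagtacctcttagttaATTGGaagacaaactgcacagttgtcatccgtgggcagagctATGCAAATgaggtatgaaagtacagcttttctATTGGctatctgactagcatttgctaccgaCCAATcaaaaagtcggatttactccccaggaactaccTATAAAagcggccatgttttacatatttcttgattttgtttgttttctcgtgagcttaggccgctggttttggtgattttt
The window of H2BC12 held 3 TATAAA, 6 CCAAT and 1 octamer match, and that of H2AC6 held 1, 3 and 1. The window of H2BC4, at chr6:26123877-26124176, overlaps that of H2AC6 and also held 1, 3 and 1.

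RefSeq promoters were matched for 55 of the 60 genes. TATAAA stood in 37 of them (67.3%), against 11.5% of 35116 promoters of the same length. CCAAT stood in 47 (85.5%), against 34.6% of all, and among histones it was in every matched H1, H2A, H2B and H3 promoter but in 1 of 9 H4 promoters. The octamer stood in 23 (41.8%), against 1.77% of all, with 13 of 16 H2B and 9 of 13 H2A promoters, 1 of 11 H3 promoters and 0 of the H1 and H4 promoters. The octamers of H2AC6, H2AC8, H2AC11, H2AC14, H2AC17 and H2AC20 lie where their windows overlap those of their H2B partners. Each such site is counted for both genes, so these are counts of promoters and not of separate sites. TATAAA and CCAAT matches in overlapping windows are likewise counted for both partners. The H3 match was that of H3C4, whose RefSeq window (26199244 to 26199543) lies away from its GENCODE gene (26196840 to 26197250). That window overlaps the H2BC7 window (26199266 to 26199565), so the match is not particular to an H3 gene. By level, TATAAA stood in 13 of 17 matched promoters of tested genes, 19 of 25 of genes under the filter and 5 of 13 of genes at 0. CCAAT stood in 16, 19 and 12 of these, and the octamer in 9, 9 and 5. These counts were not tested, and a match describes the letters in the window and not a bound site.

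Genes of related lists were set beside the histone genes, none of them with an adjusted p under 0.05 by limma. The replication-independent variants, histones whose supply is not tied to S phase in the same way and whose mRNAs mostly carry a poly(A) tail, had 11 of 12 genes tested. H3-3A and H3-3B, which encode H3.3, were at 117.6 to 127.9 and 177.6 to 193.5 FPKM over the 6 libraries, far above any listed H3 gene of the replication-dependent set. H3-3A averaged 126.7 ± 1.10 FPKM in VecRPPH1 and 118.9 ± 1.71 in VecNC (SD, n = 3 each), with an unadjusted limma p of 0.0198. CENPA, the centromere histone, averaged 26.9 ± 0.101 and 24.6 ± 1.43 FPKM, with an unadjusted limma p of 0.0280. No other variant had one under 0.05, and the median log2 fold change of the 11 was 0.06.

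The 20 genes of histone mRNA 3′ processing and decay were all tested, with 0 unadjusted p-values under 0.05 and a median log2 fold change of -0.03. The smallest limma p-values were 0.0975 for CASP8AP2, a histone locus body protein, at 5.59 ± 0.0667 FPKM in VecRPPH1 and 6.06 ± 0.269 in VecNC, and 0.117 for SRRT. Of 13 genes for histone gene transcription, 1 had an unadjusted p under 0.05, the S phase transcription factor gene E2F1, at 23.2 ± 0.401 FPKM in VecRPPH1 and 26.6 ± 1.60 in VecNC (log2 fold change -0.19 and adjusted p 0.404 by limma). CCNA2, the cyclin A gene and the next by p, was at 73.5 ± 2.06 and 69.4 ± 0.769 FPKM. Of 19 genes for histone chaperones and modifiers of new histones, 1 had an unadjusted p under 0.05, the H3-H4 chaperone gene ASF1A, at 14.2 ± 0.964 and 12.3 ± 0.132 FPKM (log2 fold change 0.18 and adjusted p 0.465 by limma). KMT5A, an H4 methyltransferase gene, was at 27.8 ± 0.533 and 26.1 ± 0.522 FPKM.

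Among cell cycle lists, no gene had an adjusted p under 0.05, and over all tested genes 5709 of 10909 had higher means in VecRPPH1. Of 32 DNA replication genes, 6 had higher means in VecRPPH1, the median log2 fold change was -0.04, and 2 had an unadjusted p under 0.05, both with lower means. These were GINS2, at 6.40 ± 0.352 FPKM in VecRPPH1 and 7.40 ± 0.205 in VecNC, and MCM5, at 18.0 ± 0.732 and 19.9 ± 1.20 FPKM, both parts of the replicative helicase. Of 24 G2/M and mitosis genes, 23 had higher means in VecRPPH1, the median log2 fold change was 0.13, and 16 had an unadjusted p under 0.05, all with higher means. KIF20A, a mitotic kinesin gene, was at 45.2 ± 1.39 and 37.8 ± 1.40 FPKM (limma adjusted p 0.182), and AURKA, a mitotic kinase gene, at 55.0 ± 1.83 and 48.4 ± 0.993 FPKM (limma adjusted p 0.320). The part of cell cycle composition in the histone values was not tested. A list of 15 RNAs known to lack a poly(A) tail, such as those of the signal recognition particle and small nuclear RNAs, was not analysed here, as 0 of them matched a row.

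**Figure D5:**
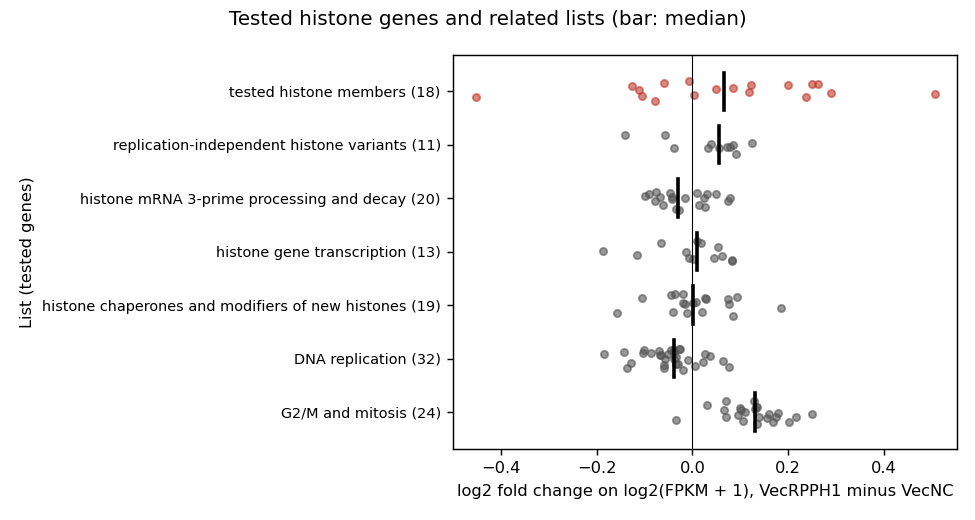
Log2 fold change on log2(FPKM + 1), VecRPPH1 minus VecNC, of each tested gene in the histone set (top row) and in 6 related lists, with a vertical bar at each median and the number of tested genes in brackets. The histone genes spread more widely than any other list shown, and the medians lie between -0.04 for DNA replication and 0.13 for G2/M and mitosis.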

How the data were processed

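The authors deposited FPKM values, 1 column per library, for 17088 genes. The submitters' processing notes list Trimmomatic, HISAT2, Cufflinks and GRCh38 with no versions; the annotation release is not given in the sources used here. Whole fragments, library totals and gene lengths were recovered from the steps of the deposited FPKM values, which came out within 2.59e-05 of a whole number for all 16293 genes over 0.

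The fit used limma 3.58.1 (R 4.3.3) with a trended prior variance. It took log2(FPKM + 1) of the 10909 genes that reached 1 FPKM in 3 or more libraries, with no term but group and with Benjamini-Hochberg adjustment over all of them. The recovery and the limma fit were tested on simulated data. Fold changes in the limma simulation were larger than those of H1-2, H2AC6 and H2BC12, so it does not speak for differences of that size. The histone genes and the related lists were chosen with earlier results of these data known. Values per library are printed for the 2 highest genes of each histone, those with an unadjusted p under 0.05 and the gene with most fragments under the filter, and from each related list the 2 genes of smallest p are named. Transcripts came from GENCODE 29 (GRCh38) and gene spans and promoters from RefSeq (GRCh38.p14), matched through Entrez identifiers. Alternatives were a pseudocount of 0.1, no filter, median-of-ratios rescaling, the replicate number as a block, limma-voom on recovered fragments and leaving out each library. No column of values was left unused. The values of 1 gene of the related lists are not reported here.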

Additional observations from a re-analysis of the deposited data

How the results depend on the processing

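Over the 11 other settings run, 0 histone genes passed an adjusted p of 0.05, and the lowest adjusted p of any of them was 0.288. The unadjusted p stayed under 0.05 in all 12 settings for H1-2 and H2AC6, in 10 for H2BC12, and in 7 each for H2BC11 and H4C3. The count of 5 such genes became 3 with voom on the recovered fragments and lay between 3 and 6 when single libraries were left out, the 3 being without VecRPPH1 replicate 2. The cause was not tested. With the replicate number as a block the count was 6, with 0 adjusted calls, and since same-numbered libraries deviated with correlations of 0.0566, 0.0180 and -0.104 the libraries were taken to share only a number. The difference in summed FPKM (22.6) was 21.5 after median-of-ratios rescaling and 20.5 to 25.0 without single libraries, and 3 genes had groups that did not overlap after rescaling. With no filter on low values 5 of 46 did, where 12.1% of all 16293 genes over 0 did, the additional ones, named after their values were seen, being H4C2 (higher, 5, 3 and 7 fragments in VecRPPH1 against 2, 3 and 3 in VecNC) and H2AC18 (lower, 1, 0 and 0 against 3, 2 and 3). These checks of the sum and of overlap were chosen after seeing the data. H1-4 changed sign when libraries were left out (-0.152 to 0.153, with 0.0215 and 0.0879 without VecNC replicates 1 and 2), and so did H4C8 (-0.310 to 0.0706, above 0 only without VecNC replicate 1). H2BC15 kept its direction in 8 of 12 settings, and H2AC11 and H3C10 in 10. The median log2 fold change was above 0 in every setting, at 0.0259 to 0.103 without single libraries.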
